A study of Homo sapiens with 40 samples.

Results

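The genes described are 38 hypoxia and glycolysis genes, matched by symbol in the authors' deposited table of comparisons, which gives values for 19280 genes. They comprise 3 transporters, 15 glycolytic enzymes, 4 genes of side branches and switches, 4 oxygen-sensing genes and 12 other targets of hypoxia-inducible factor (HIF). RNA was sequenced from 10 human non-small cell lung cancer lines, each treated with GSK3368712 (GSK712 in the labels), an inhibitor of type I protein arginine methyltransferases (PRMT1 is the main one), or with the vehicle DMSO, with 2 libraries for each arm of a line. The row labels place NCIH1563, NCIH1975, NCIH522 and PC9 under LUAD (lung adenocarcinoma) and EBC1, LK2, NCIH226, NCIH520, SKMES1 and SW900 under LUSC (lung squamous cell carcinoma). All 40 titles end in D5, which the labels do not explain, and dose and length of treatment are not spelled out. Values are log2 fold changes of GSK3368712 against DMSO unless said otherwise. The row labels name the inhibitor before DMSO, and that order is the sole ground for taking positive values as higher with the inhibitor. Nothing in the labels says that paired libraries came from separate cultures, so p-values within a line measure the spread between libraries, which may be technical.

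Between 12721 and 14565 genes were listed per line, and the summed mean normalized counts ran from 57647556 in NCIH226 to 108557964 in LK2. Of the epithelial markers EPCAM, KRT8, KRT18, KRT19 and CDH1, 3 to 5 of 5 were listed in the LUAD lines and 4 or 5 of 5 in the LUSC lines. The summed epithelial level, in normalized counts per kilobase of the longest transcript, scaled to 1 common total in each line, was 35.7 to 5534 in LUAD lines and 310 to 5607 in LUSC lines, with the lowest in NCIH522. The lineage markers followed the subtype labels poorly. Of 5 adenocarcinoma markers, 1 to 3 were listed in LUAD lines (summed level 0.649 to 18.4) and 1 to 4 in LUSC lines (1.09 to 74.9), and of 5 squamous markers, 0 to 3 in LUAD lines (0 to 97.0) and 1 to 3 in LUSC lines (0.874 to 130). SFTPC and DSG3 were listed in no line. Of 6 markers of immune, endothelial and stromal cells, 2 to 4 were listed in LUAD lines (summed level 44.3 to 132) and 1 to 3 in LUSC lines (0.916 to 208), and PTPRC and CD3E were listed in none.

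Glycolysis splits glucose into pyruvate and, through lactate dehydrogenase, into lactate, and lung cancer lines run it at a high rate even with oxygen present. In oxygen, the EGLN prolyl hydroxylases mark the HIF alpha subunits HIF1A and EPAS1 for destruction through VHL. When oxygen is low, the alpha subunits persist, pair with ARNT and raise genes that carry a short core sequence, among them most glycolytic enzymes, glucose transporters, BNIP3, CA9, ADM and VEGFA.

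Across the 10 lines these genes did not move as a block. MXI1 and ADM rose, while PGM1, PFKP, GPI, EGLN1, LDHA, PGK1, BNIP3 and TPI1 fell. Of 38 genes, 28 had values in all 10 lines and could be tested (21.6% of all genes tested were called), and 2 rose (9.50% of all genes tested rose), 8 fell (12.1% of all genes fell) and 18 did not pass limma's adjusted p of 0.05. The median of the 28 means was −0.036, against 0.0043 over the 9339 genes tested. In bulk RNA, fewer cells with a transcript and less of it per cell cannot be told apart. The other 10 members were not listed in at least 1 line, 28 of 380 entries in all; per the labels, genes of low expression were dropped from each comparison. STC1 was missing from 7 lines, CA9 from 5, CA12 and ANGPTL4 from 4 each, ALDOC and EGLN3 from 2 each, and SLC2A3, PFKFB4, EPAS1 and NDRG1 from 1 each.

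**Figure D1:**
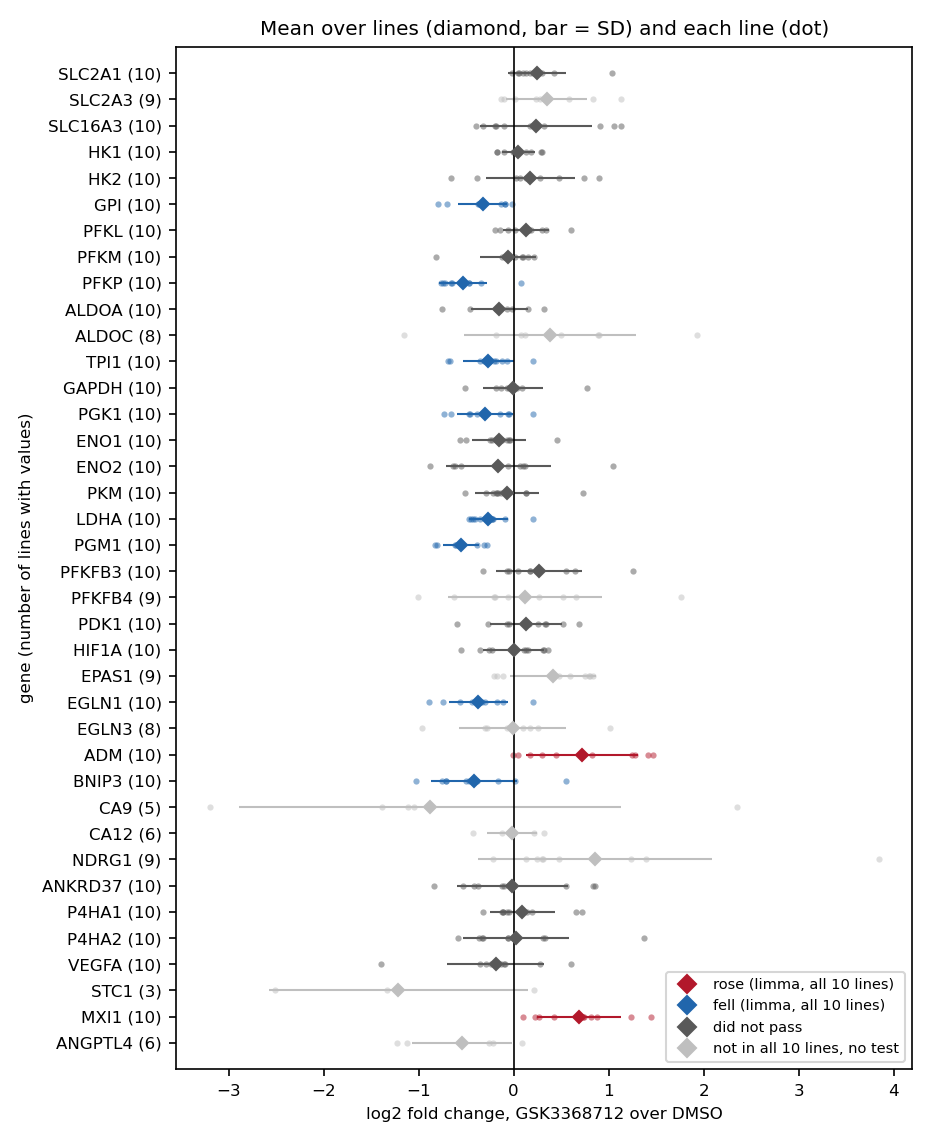
Log2 fold change (GSK3368712 over DMSO, x axis) of each of the 38 genes (y axis, with its number of lines), where dots are lines, diamonds are means and bars are SDs over lines. Red genes (2) rose and blue genes (8) fell by limma, dark grey genes did not pass, and light grey genes lack a value in at least 1 line; NDRG1 in NCIH1563 lies farthest right at 3.84.

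Promoters were compared because HIF binds the cores ACGTG and GCGTG. In the window from 250 bases before to 50 bases after the gene start in RefSeq (GRCh38.p14), either core was found on either strand in 24 of 34 member promoters (70.6%), against 48.4% of all 27305 promoters of the same length. A CACGTG palindrome counts once on each strand. SLC2A3, VEGFA, NDRG1 and STC1 were not matched. Each gene has 1 window, which can lie inside the gene span, and other annotated starts were not searched. The cores were present in 5 of the 8 members that fell and 1 of the 2 that rose, and absent from these windows of PFKP, PGM1, TPI1 and MXI1. A pair of promoters of genes that fell and the one of ADM are shown 5′ to 3′ on the gene's strand, with the cores or their reverse complements in capitals, because each holds a core while LDHA and BNIP3 fell and ADM rose. LDHA lies at chr11:18394313-18394612 on the plus strand, BNIP3 at chr10:131981874-131982173 on the minus strand and ADM at chr11:10304823-10305122 on the plus strand.
LDHA: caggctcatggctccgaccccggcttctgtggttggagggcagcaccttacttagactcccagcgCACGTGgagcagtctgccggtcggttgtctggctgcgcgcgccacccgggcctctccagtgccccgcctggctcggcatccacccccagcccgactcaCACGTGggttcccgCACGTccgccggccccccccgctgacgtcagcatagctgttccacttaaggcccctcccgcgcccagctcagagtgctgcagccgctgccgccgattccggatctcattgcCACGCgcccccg
BNIP3: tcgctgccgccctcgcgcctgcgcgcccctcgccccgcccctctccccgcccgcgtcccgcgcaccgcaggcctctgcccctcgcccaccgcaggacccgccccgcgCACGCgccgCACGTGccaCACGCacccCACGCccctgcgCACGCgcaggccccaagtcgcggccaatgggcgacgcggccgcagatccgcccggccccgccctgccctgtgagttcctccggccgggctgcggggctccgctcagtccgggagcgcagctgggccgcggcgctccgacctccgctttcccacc
ADM: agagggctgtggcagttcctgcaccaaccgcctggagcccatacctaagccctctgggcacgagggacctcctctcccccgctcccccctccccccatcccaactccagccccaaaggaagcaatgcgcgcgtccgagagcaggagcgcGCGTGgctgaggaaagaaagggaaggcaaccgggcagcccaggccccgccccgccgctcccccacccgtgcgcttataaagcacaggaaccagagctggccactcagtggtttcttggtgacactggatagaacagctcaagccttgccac
A match is a description of letters and does not show that a factor bound there.

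Within single lines, members were called by the authors' adjusted p of at most 0.05, and each share of all genes listed is given beside the count. In NCIH1563, 17 of 38 members were called higher (all genes 23.3%) and 5 lower (24.8%), together 57.9% of the members against 48.1% of all genes. NCIH1975 had 2 of 38 higher (4.33%) and 4 lower (3.58%), together 15.8% against 7.91%. NCIH522 had 0 of 33 higher (0.912%) or lower (0.750%), against 1.66%, by the authors' DESeq2 values. PC9 had 1 of 36 higher (2.56%) and 3 lower (1.92%), together 11.1% against 4.48%. In the LUSC lines between 23.8% and 46.5% of all genes were called. EBC1 had 4 of 34 higher (23.0%) and 11 lower (23.4%), together 44.1% against 46.5%. LK2 had 8 of 33 higher (19.9%) and 10 lower (19.5%), together 54.5% against 39.4%. NCIH226 had 8 of 34 higher (15.5%) and 7 lower (15.8%), together 44.1% against 31.3%. Calls in NCIH520 were 5 of 33 higher (11.4%) and 9 lower (12.3%), together 42.4% against 23.8%. Calls in SKMES1 were 3 of 37 higher (15.8%) and 14 lower (15.6%), together 45.9% against 31.4%. Calls in SW900 were 15 of 36 higher (18.0%) and 7 lower (17.7%), together 61.1% against 35.7%. Median standard errors over the genes listed in all lines were 0.201 to 0.316 in LUAD lines and 0.092 to 0.115 in LUSC lines. In EBC1, with a median of 0.105, some members had larger ones, among them ALDOC (0.454), NDRG1 (0.405), LDHA (0.290) and PGK1 (0.243). Others there did not, such as GPI (0.101) and PFKP (0.093).

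**Figure D2:**
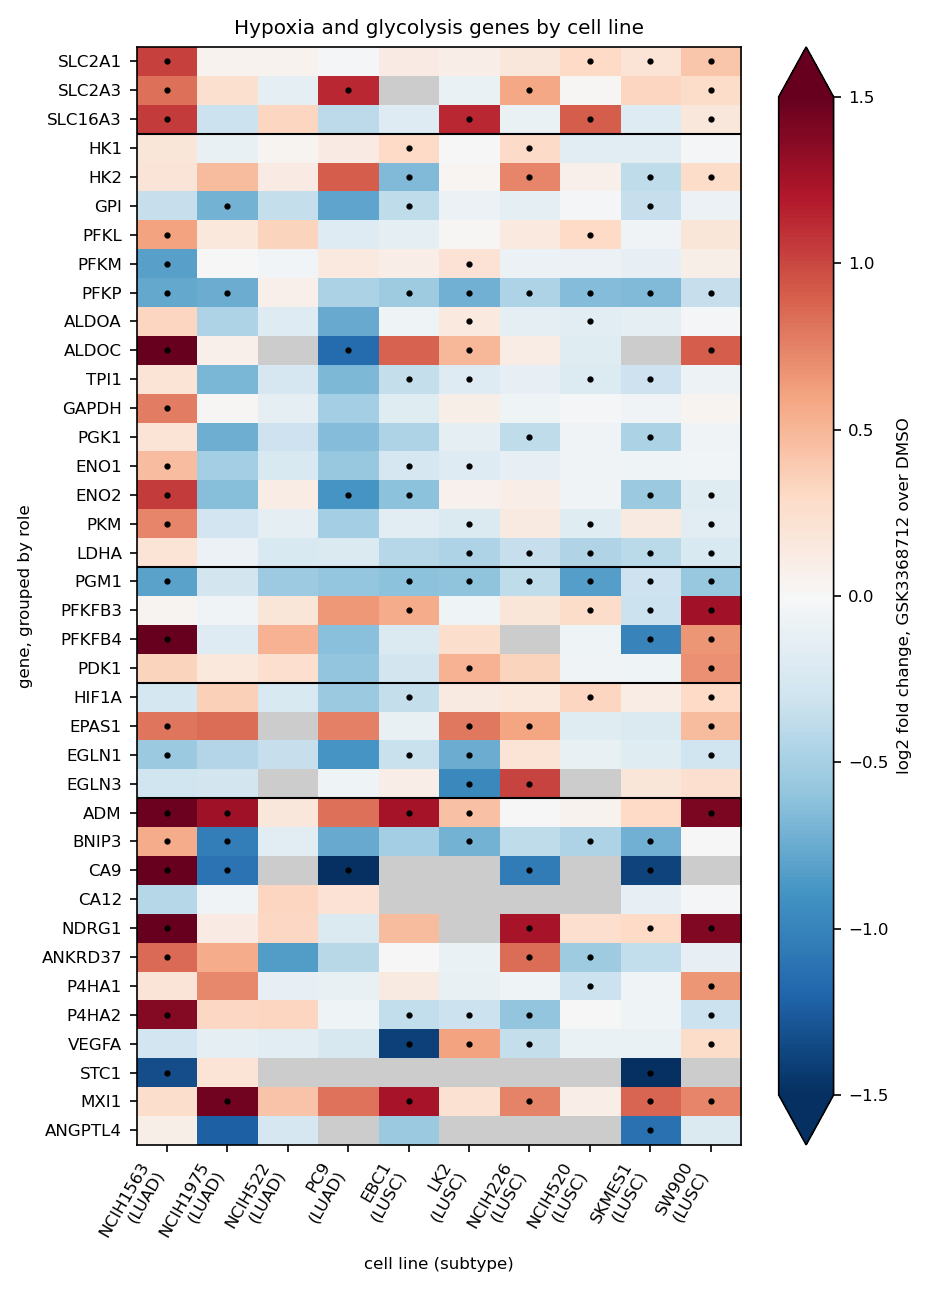
Log2 fold change (GSK3368712 over DMSO, colour, capped at 1.5 in either direction) of the 38 genes (rows, separated by role) in the 10 lines (columns). Black dots mark the authors' adjusted p of at most 0.05 and grey cells are not listed; the NCIH1563 column has 17 genes called higher, and PFKP and PGM1 are blue in 9 and 10 of the 10 columns.

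The transporters bring glucose in and carry lactate out. SLC2A1 (GLUT1), the main glucose importer of most tumour cells, had a mean of 0.24 ± 0.30 (SD, n = 10; limma adjusted p = 0.0802) and stood above 0 in 9 of 10 lines. In the authors' deposited table it was called higher in NCIH1563 at 1.03, SW900 at 0.42, NCIH520 at 0.29 and SKMES1 at 0.20. SLC2A1 passed in the 6 LUSC lines alone (0.22, limma adjusted p = 0.0306) and in the random-effects meta-analysis (0.26, adjusted p = 0.00193). SLC2A3 (GLUT3), a high-affinity importer, ran from −0.14 in NCIH522 to 1.12 in PC9 over 9 lines in the authors' deposited table, with a median of 0.28. GENCODE 29 names 3 pseudogenes after SLC2A3, so its reads may be shared with these or other copies. SLC16A3 (MCT4), which exports lactate, split the lines: the authors' deposited table calls it higher in LK2 at 1.13, NCIH1563 at 1.05, NCIH520 at 0.91 and SW900 at 0.17, while 5 lines lay below 0 without a call. Its mean was 0.24 ± 0.59 (n = 10; limma adjusted p = 0.316). Over the lines, the 3 transporters had 12 calls higher and 0 lower in 29 entries. Of all genes, between 0.912% and 23.3% were called higher in a line and between 0.750% and 24.8% lower. Across lines, 0 of the 2 tested transporters passed.

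Glycolytic enzymes that passed the test had all fallen. Of 15 enzymes, 14 were tested. Of these, 0 rose (9.50% of all genes tested rose), 5 fell (12.1% of all genes fell) and 9 did not pass. The median of the 14 means was −0.15. The largest fall was that of PFKP (chromosome 10, 3066333 to 3137712 in GRCh38, as are all gene positions given), the platelet-type phosphofructokinase, which adds the second phosphate in the committed step. PFKP stood at −0.76 in NCIH1563, −0.74 in NCIH1975, 0.075 in NCIH522 and −0.47 in PC9 in the authors' deposited table. In the LUSC lines the authors' deposited table gives PFKP −0.53 in EBC1, −0.72 in LK2, −0.47 in NCIH226, −0.65 in NCIH520, −0.66 in SKMES1 and −0.35 in SW900. Only NCIH522 stood above 0, and 8 of 10 lines carried the authors' call. PFKP fell by 0.53 ± 0.25 on the log2 scale (n = 10; limma adjusted p = 0.000804). A call of lower in at least 7 of 10 lines was made for 2.16% of the 9339 genes, and PFKP and PGM1 were the members that had it. No member was called higher in at least 7 lines, a call made for 1.15% of genes. Counts per arm were not read directly but implied by a line's mean normalized count and fold change. In LK2 the implied normalized count of PFKP was 4237 with GSK3368712 and 6984 with DMSO.

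GPI (chromosome 19, 34359480 to 34402413), the isomerase that turns glucose 6-phosphate into fructose 6-phosphate, lay below 0 in all 10 lines. It ran from −0.79 in PC9 to −0.020 in NCIH520 with a median of −0.34 in the authors' deposited table, and fell by 0.33 ± 0.26 (n = 10; limma adjusted p = 0.0142). In the LUSC lines alone GPI did not pass (−0.18, limma adjusted p = 0.0840). LDHA (chromosome 11, 18394388 to 18408425), the lactate dehydrogenase subunit that favours lactate formation, fell by 0.27 ± 0.21 (n = 10; limma adjusted p = 0.0200). In the authors' deposited table LDHA lay between −0.47 in LK2 and −0.23 in SW900 in the LUSC lines, and was called lower in 5 of them. In the LUAD lines it ran from −0.23 in NCIH522 to 0.20 in NCIH1563 in the authors' deposited table, with no call. The implied normalized count of LDHA in NCIH520 was 59932 with GSK3368712 and 81643 with DMSO.

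PGK1 (chromosome X, 77910739 to 78129296), which makes the first ATP of the pathway, fell by 0.31 ± 0.30 (n = 10; limma adjusted p = 0.0294). Its values ran from −0.74 in NCIH1975 to 0.21 in NCIH1563, with a median of −0.35, in the authors' deposited table. TPI1 (chromosome 12, 6867119 to 6870948), which interconverts the triose phosphates, fell by 0.27 ± 0.27 (n = 10; limma adjusted p = 0.0397). For TPI1, the authors' deposited table has −0.69 in NCIH1975 at the low end and 0.20 in NCIH1563 at the high end. NCIH1563 was the single line above 0 for PGK1, TPI1, LDHA and ENO1. The TPI1 call was lost without any 1 of the other 9 lines, the PGK1 call without NCIH1975, NCIH522, PC9, EBC1, NCIH226 or SKMES1, and the LDHA call without LK2, NCIH520 or SKMES1. The highest adjusted p with a line left out was 0.0864 for TPI1, 0.0663 for PGK1 and 0.0513 for LDHA.

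Of the other 10 enzymes, 9 did not pass across lines and ALDOC was not tested. GAPDH, often used as a reference gene, had a mean of −0.0057 ± 0.32 (n = 10; limma adjusted p = 0.976), with 0.77 in NCIH1563 and −0.51 in PC9 at the ends in the authors' deposited table. ENO1, the main enolase, had −0.15 ± 0.28 (limma adjusted p = 0.238) and ALDOA, the main aldolase of most tissues, −0.15 ± 0.30 (limma adjusted p = 0.274). PKM, whose product makes pyruvate, had −0.068 ± 0.34 (limma adjusted p = 0.688). HK2, the inducible hexokinase, had calls in both directions in the authors' deposited table: higher in NCIH226 at 0.74 and SW900 at 0.28, lower in EBC1 at −0.66 and SKMES1 at −0.39. HK1, the widely expressed hexokinase, stayed within −0.17 to 0.30 in the authors' deposited table. ALDOC, the brain-type aldolase, ran from −1.16 in PC9 to 1.93 in NCIH1563 in the 8 lines of the authors' deposited table that list it, and both ends carried the authors' call. GENCODE 29 names 62 pseudogenes after GAPDH, 6 after LDHA, 5 after PKM and 4 each after TPI1 and ENO1, so reads of these genes may have been shared with copies.

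Next to the main chain, PGM1 (chromosome 1, 63593276 to 63660245) links glycogen and glycolysis by interconverting glucose 1-phosphate and glucose 6-phosphate. It had the smallest p of the 28 tested members. In the authors' deposited table PGM1 stood at −0.81 in NCIH1563, −0.28 in NCIH1975, −0.55 in NCIH522 and −0.59 in PC9. The authors' deposited table puts the LUSC lines at −0.62 in EBC1, −0.61 in LK2, −0.38 in NCIH226, −0.83 in NCIH520, −0.32 in SKMES1 and −0.57 in SW900. All lines lay below 0, as 9.82% of the 9339 genes did with 1 sign throughout, and 7 were called lower. PGM1 fell by 0.55 ± 0.19 (n = 10; limma adjusted p = 0.000214), to 0.681 of the DMSO level on average. The implied normalized count ran from 421 to 18436 with GSK3368712 and from 748 to 27654 with DMSO. PGM1 was also the 1 tested member whose fold changes did not pass Cochran's Q test of a difference between lines (Q = 16.3 on 9 degrees of freedom, adjusted p = 0.0848). ITGB3BP overlaps PGM1 on the opposite strand, and the strand used in counting is not given in the sources used here. Of the other members called across lines, TPI1, PGK1, BNIP3 and MXI1 also overlap an annotated gene on the opposite strand. GPI, PFKP, LDHA, PGK1, PGM1 and MXI1 overlap an annotated gene on the same strand.

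PFKFB3 and PFKFB4 set the level of fructose 2,6-bisphosphate, which speeds up phosphofructokinase, and PDK1 shuts pyruvate out of the mitochondrial pyruvate dehydrogenase complex. PFKFB3 had a mean of 0.27 ± 0.45 (n = 10; limma adjusted p = 0.151) and was called higher in SW900 at 1.25, EBC1 at 0.55 and NCIH520 at 0.27, and lower in SKMES1 at −0.33, in the authors' deposited table. PFKFB4 covered a wider range, with 1.76 in NCIH1563 and 0.66 in SW900 called higher and −1.005 in SKMES1 called lower in the authors' deposited table. In NCIH1563 the implied normalized count of PFKFB4 was 5024 with GSK3368712 and 1486 with DMSO. PDK1 had a mean of 0.13 ± 0.38 (n = 10; limma adjusted p = 0.437), with calls higher in SW900 and LK2.

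Of the oxygen-sensing genes, EGLN1 (PHD2, the main HIF prolyl hydroxylase; chromosome 1, 231363751 to 231425044) fell by 0.37 ± 0.31 (n = 10; limma adjusted p = 0.0144). The authors' deposited table gives EGLN1 −0.89 in PC9, −0.74 in LK2 and −0.56 in NCIH1563 at the low end and 0.20 in NCIH226 as the only value above 0. The authors called it lower in 4 lines (LK2, NCIH1563, EBC1 and SW900). In the LUSC lines alone EGLN1 did not pass (−0.24, limma adjusted p = 0.136). EGLN3 (PHD3), itself a HIF target, stood at 1.01 in NCIH226 and −0.96 in LK2, both called, in the authors' deposited table, with the other 6 lines between −0.30 and 0.26. HIF1A had a mean of −0.0012 ± 0.32 (n = 10; limma adjusted p = 0.995) and split the LUSC lines, with EBC1 called lower at −0.35 and NCIH520 and SW900 called higher at 0.32 and 0.30 in the authors' deposited table. EPAS1 (HIF-2 alpha) averaged 0.42 over 9 lines, and the authors' deposited table calls it higher in NCIH1563 at 0.80, LK2 at 0.79, NCIH226 at 0.59 and SW900 at 0.48. With genes listed in at least 7 lines admitted, EPAS1 had an adjusted p of 0.0523 (limma, 20.2% of 12111 genes called), and in the 9 lines without NCIH522, which does not list it, EPAS1 passed (limma adjusted p = 0.0479). RNA levels of HIF1A and EPAS1 do not measure their proteins, which are controlled after translation.

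Other HIF targets moved in both directions. ADM (chromosome 11, 10304680 to 10307397), which encodes the vasodilator peptide adrenomedullin, rose by 0.72 ± 0.59 (n = 10; limma adjusted p = 0.00709). In the authors' deposited table ADM stood at 1.47 in NCIH1563, 1.27 in NCIH1975, 0.17 in NCIH522 and 0.82 in PC9. Among LUSC lines the authors' deposited table gives ADM 1.25 in EBC1, 0.44 in LK2, −0.007 in NCIH226, 0.048 in NCIH520, 0.30 in SKMES1 and 1.41 in SW900. Above 0.8 stood 5 of 10 lines, and the others lay below 0.5. The call was made in 5 lines, which include LK2 at 0.44 but not PC9 at 0.82 (authors' DESeq2 adjusted p = 0.0556). Implied normalized counts were 19496 with GSK3368712 and 7043 with DMSO in NCIH1563, and 444 with GSK3368712 and 167 with DMSO in SW900. In the LUSC lines alone ADM did not pass (0.57, limma adjusted p = 0.0695).

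MXI1 (chromosome 10, 110207605 to 110287365), a MAX partner that opposes MYC, was above 0 in all 10 lines. The authors' deposited table lists MXI1 at 0.26 in NCIH1563, 1.45 in NCIH1975, 0.43 in NCIH522 and 0.82 in PC9. For LUSC lines it lists 1.24 in EBC1, 0.23 in LK2, 0.74 in NCIH226, 0.10 in NCIH520, 0.88 in SKMES1 and 0.74 in SW900, again from the authors' deposited table. The call was made in NCIH1975 and 4 LUSC lines, and MXI1 rose by 0.69 ± 0.44 (n = 10; limma adjusted p = 0.00205), 1.61-fold on average. Implied normalized counts lay between 982 and 3193 with GSK3368712 and between 596 and 2241 with DMSO. MXI1 was not among the top 75% of genes by mean normalized count.

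**Figure D3:**
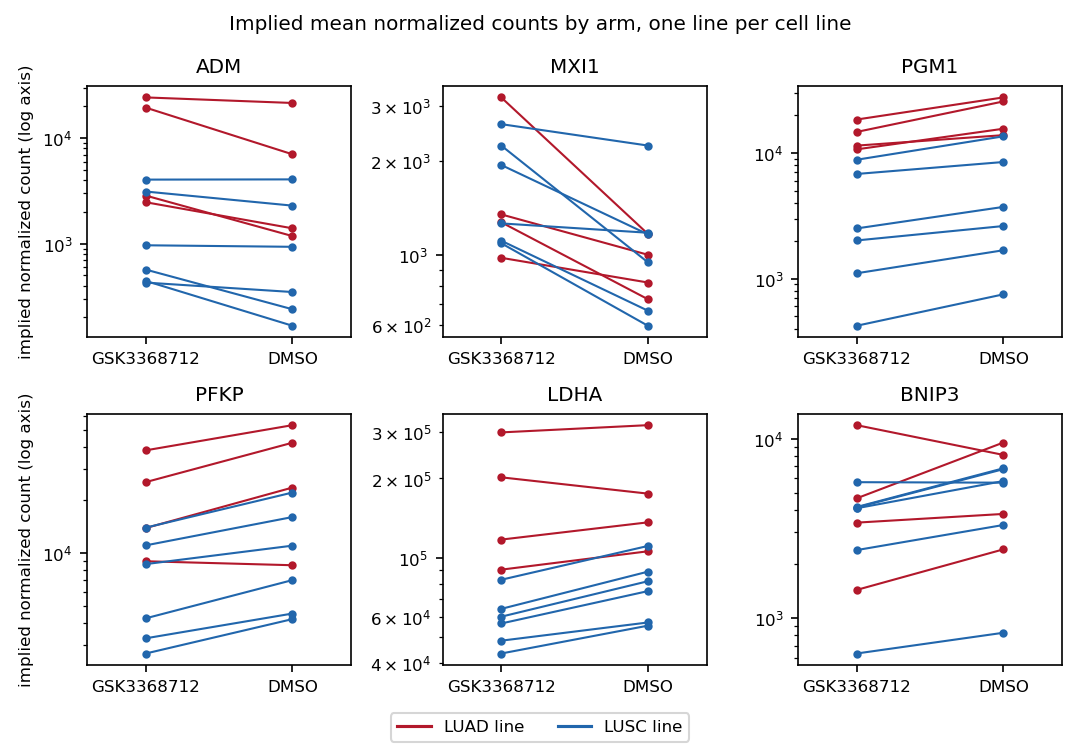
Implied mean normalized count (y axis, log scale) of 6 genes with GSK3368712 (left) and DMSO (right), 1 segment per cell line, LUAD lines in red and LUSC lines in blue. MXI1 slopes down towards DMSO in 10 of 10 lines and PGM1 up in 10 of 10, while PFKP slopes up in 9.

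BNIP3 (chromosome 10, 131966455 to 131982013), a mitophagy receptor of the outer mitochondrial membrane, fell by 0.42 ± 0.45 (n = 10; limma adjusted p = 0.0329). BNIP3 was called lower in NCIH1975 at −1.03, SKMES1 at −0.72, LK2 at −0.71 and NCIH520 at −0.47, and higher in NCIH1563 at 0.55, in the authors' deposited table. The BNIP3 call was lost without NCIH1975, PC9, EBC1, LK2, NCIH226, NCIH520 or SKMES1 (highest adjusted p 0.0753), and 39 pseudogenes carry its name in GENCODE 29. VEGFA, the main angiogenic growth factor, had the largest Cochran's Q among the tested members (Q = 288, adjusted p = 2.88e-54, rank 26 of 9339 genes). Q weighs the differences between lines by their standard errors, and the SD of VEGFA over lines, 0.51, was below that of ADM, 0.59. The authors' deposited table calls VEGFA lower in EBC1 at −1.40 and NCIH226 at −0.36 and higher in LK2 at 0.61 and SW900 at 0.28. In EBC1 its implied normalized count was 13382 with GSK3368712 and 35219 with DMSO.

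NDRG1, a stress-induced gene, reached 3.84 in NCIH1563 in the authors' deposited table, the largest value of any member (standard error 0.197), with an implied normalized count of 16939 with GSK3368712 and 1182 with DMSO. It was also called higher in SW900 at 1.39, NCIH226 at 1.24 and SKMES1 at 0.30, and no line was called lower, in the authors' deposited table. The 9 lines averaged 0.86 ± 1.23. CA9, a membrane carbonic anhydrase and a classic hypoxia marker, was listed in 5 lines and called in each. For CA9 the authors' deposited table has 2.35 in NCIH1563 and then −1.05 in NCIH226, −1.11 in NCIH1975, −1.38 in SKMES1 and −3.20 in PC9. The implied normalized counts of CA9 were 1246 with GSK3368712 and 244 with DMSO in NCIH1563, and 87.3 with GSK3368712 and 802 with DMSO in PC9. STC1 (stanniocalcin-1, a secreted glycoprotein) was listed in 3 lines, at −2.51 in SKMES1, −1.33 in NCIH1563 and 0.21 in NCIH1975 in the authors' deposited table, and the first pair were called lower. ANGPTL4, a secreted inhibitor of lipoprotein lipase, averaged −0.55 ± 0.53 over 6 lines, and in the authors' deposited table only SKMES1, at −1.12, was called.

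P4HA1 and P4HA2 encode the catalytic subunits of collagen prolyl 4-hydroxylase. P4HA2 was called higher in NCIH1563 at 1.37 and lower in NCIH226 at −0.59, EBC1 at −0.37, SW900 at −0.33 and LK2 at −0.33 in the authors' deposited table. P4HA2 had the smallest p of the subtype test among the 28 genes, with 0.49 ± 0.62 in LUAD lines (SD, n = 4) and −0.28 ± 0.21 in LUSC lines (SD, n = 6), a difference of 0.77 (limma adjusted p = 0.713, unadjusted p = 0.00739). P4HA1 was called higher in SW900 at 0.66 and lower in NCIH520 at −0.32 in the authors' deposited table. ANKRD37, an ankyrin repeat gene induced by HIF, ran from −0.84 in NCIH522 to 0.85 in NCIH1563 in the authors' deposited table, which calls it higher in NCIH1563 and NCIH226 and lower in NCIH520. CA12, a second membrane carbonic anhydrase, stayed between −0.42 and 0.32 in 6 lines of the authors' deposited table, with no call.

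Some members are paralogs that do the same step, and whether 1 moved more than its partner was compared within each line. Of 11 pairs, 10 had at least 6 lines with both genes, and 1 differed. The pairs were chosen with earlier results of these data known, and the exact p-values do not account for that choice. PFKP minus PFKL, the liver-type phosphofructokinase, was −0.66 ± 0.34 (n = 10; exact sign-flip p = 0.00195, the smallest that 10 lines allow, adjusted p = 0.0195), with PFKP at −0.53 and PFKL at 0.13 on average. The difference was below 0 in 10 of 10 lines, from −1.37 in NCIH1563 to −0.26 in NCIH522. PFKM, the muscle type, minus PFKL was −0.19 ± 0.50 (exact adjusted p = 0.520). By level per kilobase of the longest transcript, scaled to 1 common total in each line, PFKP had the highest median of the 3. The medians over lines were 62.3 for PFKP, 29.7 for PFKM and 23.3 for PFKL, although each line was normalized separately by the authors. PFKP was not the highest in every line: PFKM stood above it in LK2, NCIH226 and NCIH520, and PFKL in NCIH522. The order against PFKL also rests on division by the longest transcript, 6007 bases for PFKL and 2769 for PFKP. In NCIH1563 the mean normalized count before that division was 26269 for PFKL and 18610 for PFKP. EGLN3 minus EGLN1 was 0.40 ± 0.34 over 8 lines, above 0 in 7 (exact p = 0.0234, adjusted p = 0.117). EPAS1 minus HIF1A was 0.39 ± 0.58 over 9 lines (exact adjusted p = 0.205), and ALDOC minus ALDOA 0.53 ± 0.63 over 8 lines (exact adjusted p = 0.205).

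**Figure D4:**
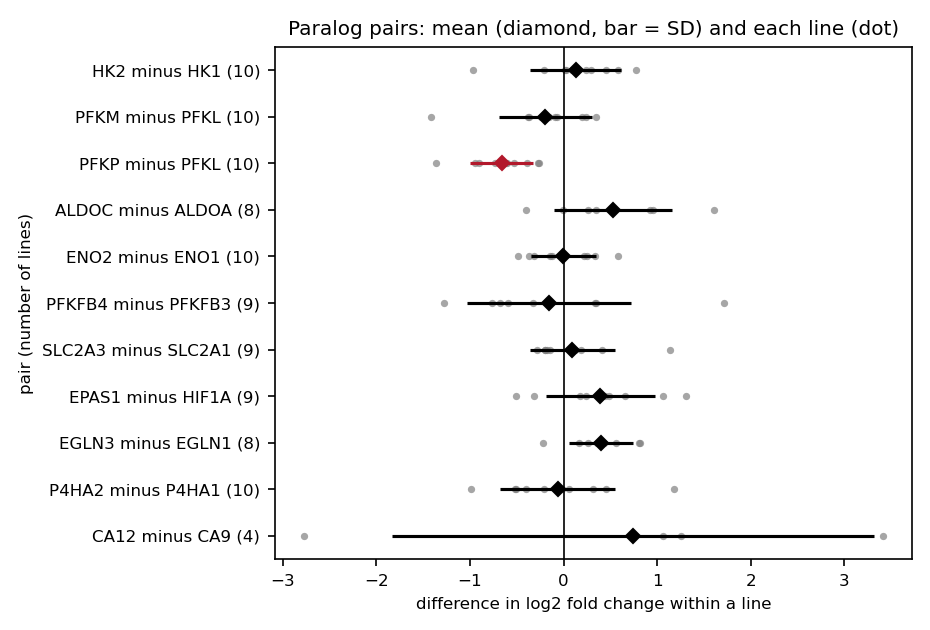
Difference in log2 fold change between 2 paralogs of the same line (x axis) for the 11 pairs (y axis, with the number of lines), where dots are lines, diamonds are means and bars are SDs. PFKP minus PFKL (red) is the pair past the exact test, with all 10 dots below 0, from −1.37 to −0.26.

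The glycolytic enzymes' calls are given for the line with their highest median and the 4 lines with their lowest, and no test of the group was made between lines. In NCIH1563, 6 of 15 glycolytic enzymes were called higher (GAPDH, PKM, ENO1, ENO2, PFKL and ALDOC) and 2 lower (PFKP and PFKM), with a median of 0.21, where all genes had 23.3% higher and 24.8% lower. SKMES1 had 7 of 14 called lower and 0 higher (median −0.24; all genes 15.6% lower and 15.8% higher). EBC1 had 6 of 15 called lower and 1 higher (median −0.25; all genes 23.4% lower and 23.0% higher). NCIH1975 had 2 of 15 called lower and 0 higher (median −0.29; all genes 3.58% lower and 4.33% higher). PC9 had the lowest median, −0.51, with 2 of 15 enzymes called lower and 0 higher (all genes 1.92% lower and 2.56% higher). The median over all genes listed was −0.013 in NCIH1563, 0.001 in SKMES1, 0.002 in EBC1, 0.042 in NCIH1975 and 0.005 in PC9.

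By Cochran's Q, 27 of the 28 tested members differed between lines beyond the authors' standard errors, against 65.9% of all genes. Without NCIH1563, 21 of 28 differed, against 49.3% of all genes. After VEGFA, the largest Q values were those of PFKFB3 (156), SLC16A3 (136), P4HA2 (117) and ADM (111). Between subtypes, 0 of the 28 tested members passed limma's adjusted p, and 1 of 9339 genes did (0.0107%). At an unadjusted p under 0.05, 3 members differed (P4HA2, GPI and LDHA), as did 511 of all genes, and an ordinary two-sample test gave 0 adjusted and 3 unadjusted. GPI averaged −0.55 ± 0.23 in LUAD lines and −0.18 ± 0.15 in LUSC lines, and LDHA −0.084 ± 0.20 in LUAD lines and −0.39 ± 0.087 in LUSC lines.

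Of 67 tested genes of the same pathways that are not among the 38, 7 rose (10.4%) and 10 fell (14.9%), near the 9.50% and 12.1% of all genes, so the counts of these lists are not a result about the pathways. Of 28 remaining glycolysis and lactate genes, 14 were tested, 1 rose and 3 fell. ENO3, the muscle enolase, fell by 0.61 ± 0.45, TIGAR, a fructose bisphosphatase induced by p53, by 0.35 ± 0.18, and MINPP1, an inositol phosphate phosphatase, by 0.25 ± 0.14 (n = 10; limma adjusted p = 0.00448, 0.00341 and 0.0129). PGM3, an enzyme of UDP-N-acetylglucosamine synthesis, rose by 0.29 ± 0.19 (limma adjusted p = 0.00954). Of 18 genes of pyruvate entry and gluconeogenesis, 12 were tested, 2 rose and 3 fell. PDK2, a kinase that inactivates pyruvate dehydrogenase, rose by 0.64 ± 0.39 in 9 of 10 lines (limma adjusted p = 0.00183). DLAT and PDHX, parts of the core of that complex, fell by 0.43 ± 0.39 and 0.28 ± 0.28, each in 10 of 10 lines (limma adjusted p = 0.0157 and 0.0353; the PDHX call held in 4 of the 10 fits that left out a line), and G6PC3, a ubiquitous glucose 6-phosphatase, by 0.41 ± 0.21 in 10 of 10 (limma adjusted p = 0.00191).

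Of 16 genes of the HIF machinery, 14 were tested and 1 rose: CITED2, which competes with HIF for its coactivators, by 0.44 ± 0.42 (n = 10; limma adjusted p = 0.0177). Of 44 further hypoxia targets, 27 were tested, 3 rose and 4 fell, near the shares of all genes tested (9.50% rose and 12.1% fell). ERRFI1, a feedback inhibitor of EGFR, rose by 0.40 ± 0.27 (limma adjusted p = 0.00548). SLC6A6, the taurine transporter, fell by 0.45 ± 0.33, the mitochondrial protein gene FAM162A by 0.33 ± 0.26, and ERO1A, an oxidase of the endoplasmic reticulum, by 0.29 ± 0.21 (limma adjusted p = 0.00686, 0.0135 and 0.0144). The medians of the means of the 4 lists were −0.13, 0.012, 0.044 and 0.033 in the order given, against 0.0043 for all genes. Of the genes named from these lists, all but MINPP1 and G6PC3 overlap another annotated gene on the opposite strand.

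By median level over lines, in normalized counts per kilobase of the longest transcript, scaled to 1 common total in each line, GAPDH (2477), ENO1 (1241), PKM (1045), TPI1 (641), ALDOA (534) and LDHA (451) stood far above the rest. The genes that rose were low, with ADM at 11.0 and MXI1 at 5.001, and those that fell ran from TPI1 and LDHA down to BNIP3 at 20.7 and EGLN1 at 6.09. ADM spanned 2.65 in SW900 to 129 in NCIH522, and HIF1A 7.36 in NCIH522 to 238 in EBC1. These levels average both arms of a line, lines were normalized separately, and genes with one very long annotated transcript, such as PDK1 and VEGFA, are understated.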

How the data were processed

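Messenger RNA of 10 human lung cancer cell lines was sequenced in 40 libraries. The tools named in the submitters' processing notes are FastQC, Salmon 0.12.0 and DESeq2, with GRCh38 as the build. Per the labels, genes with an FPKM of 1 or less were dropped from a comparison. All values came from the authors' deposited table, which holds 1 comparison per line and no value per library. Its fold changes and standard errors are deposited in log2 units. The deposited statistic is a score, the fold change over its standard error. The deposited adjusted p-value is over the genes listed for a line. The deposited mean normalized count is a signal averaged over the libraries of a line, scaled within that line. With no totals per library used here, values carry no counting interval.

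Members were matched by symbol (38 of 38). They and the further gene lists and pairs were chosen with earlier results of these data known. Across lines, limma 3.58.1 (R 4.3.3) tested the mean of 1 fold change per line for the 9339 genes listed in every line, adjusted by Benjamini-Hochberg over all of them. The same genes were tested for LUAD minus LUSC lines by limma and for differences between lines by Cochran's Q. For paralog pairs, the signs of the differences per line were flipped in every way (exact permutation, two-sided), with adjustment over 10 pairs. Means and SDs are taken over lines. Implied normalized counts per arm were computed from the mean count and the fold change, taking the arms as equally weighted. Positions, transcript lengths and GC content came from GENCODE 29 (99.8% of gene IDs matched) and promoter sequences from RefSeq (GRCh38.p14). Of the marker list for other cells, 1 gene is not reported here.

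All members could be named, with full statistics for those past the test across lines, those with a mean of at least 0.5 in either direction, and those with a called line at 2 or more in either direction. Of each list of other pathway genes, up to 4 with the smallest p past the test were named. Alternatives were an ordinary test, genes in at least 7 lines, the top 75% of genes by expression, centring, correction for GC content and length, a random-effects meta-analysis, each subtype alone, each line left out, and recomputed or stricter calls within a line.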

Additional observations from a re-analysis of the deposited data

Results flagged for a closer look

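In 103 groups of lines (each gene over all lines, over LUAD lines and over LUSC lines), 13 held a line whose log2 fold change stood far from the others for the group's size, and about 1 group in 20 does so by chance. Of these 13, 10 were NCIH1563, and the groups share lines. Among all lines, NCIH1563 stood apart with SLC2A1 at 1.03 (next highest 0.42), GAPDH at 0.77 (next 0.086), ENO1 at 0.46 (next −0.036), ENO2 at 1.05 (next 0.12), PKM at 0.73 (next 0.14), NDRG1 at 3.84 (next 1.39) and P4HA2 at 1.37 (next 0.33), and with PFKM at −0.82 (next lowest −0.13). SLC2A1 at 1.03 and NDRG1 at 3.84 in NCIH1563 also stood apart among the LUAD lines alone. PFKP in NCIH522, at 0.075, stood above the other 9 lines, the next of which was at −0.35. VEGFA in EBC1, at −1.40, stood below the others, the next at −0.36, and HIF1A in EBC1, at −0.35, stood below the other LUSC lines, the next at 0.11. The median absolute log2 fold change over all genes was 0.519 in NCIH1563, above the 0.193 to 0.349 of the other 9 lines. Over the members it was 0.582 in NCIH1563 and 0.575 in PC9, where all genes had 0.327. In the remaining lines the members had 0.172 to 0.354. The part of line-wide differences in these values was not tested.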

How the results depend on the processing

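Centring and admitting genes listed in at least 7 lines changed no member call across lines. With an ordinary test 5 members fell in place of 8 (TPI1, PGK1 and BNIP3 lost) and 4 other pathway genes rose in place of 7; the meta-analysis had 12 other pathway genes that rose. Correction for GC content and length lost PGK1. With the top 75% of genes by expression 1 member rose, because MXI1 was removed. In the LUAD lines alone 0 members and 0 other pathway genes rose and 0 of either fell, with 4 lines in the fit. No share of all genes called across lines is given here for the ordinary test or the meta-analysis. The same is true of the fits on each subtype alone or with a line left out. Their counts of genes that rose or fell, the 0 in LUAD lines included, are thus not a result about the members. In the LUSC lines alone P4HA2, not called over 10 lines, passed at −0.28. Leaving out each line in turn, 2 to 3 members rose (the third is EPAS1, without NCIH522), 4 to 9 fell (4 without SKMES1, 5 without NCIH1975, PC9, EBC1, LK2, NCIH226 or NCIH520, 9 without NCIH1563), and 4 to 10 other pathway genes rose (4 without NCIH1975, EBC1, NCIH226, NCIH520, SKMES1 or SW900, 10 without NCIH1563) and 8 to 13 fell. In the same fits 21 to 28 members of 28 or 29 tested differed between lines, against 49.3% to 68.2% of all genes. In these fits 0 members differed between subtypes and 1 paralog pair differed. Among LUAD lines alone 16 of 32 tested members differed between lines, against 32% of all genes. No pair passed in the LUSC lines alone, where the smallest exact p is 0.0312. Where calls within a line also had to reach 1 on the log2 scale in either direction, 20 calls higher and 11 lower stood in place of 63 and 70. These counts are summed over the 352 entries of all lines. No share of all genes at this limit is given here, so they are not a result about the members. PFKP, PGM1, GPI, EGLN1, ADM and MXI1 were called in all 10 fits that left out a line. No paired analysis was possible because the deposited values are comparisons that carry no replicate numbers, and libraries could not be left out for the same reason. Differences within a line near the standard errors of the LUAD lines could not be detected. The same holds for ALDOC, NDRG1, LDHA and PGK1 in EBC1, where their standard errors were 0.243 to 0.454. Standard errors in EBC1 were also large for ANGPTL4 (0.447), PFKFB4 (0.405), PDK1 (0.371) and BNIP3 (0.295). In LK2 that of SLC2A3 was 0.735.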
